A study of Monodelphis domestica with 7 samples.

Results

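Faim2 (ENSMODG00000004300) and Aatk (ENSMODG00000002559) are 2 of the 21314 genes counted in the spinal cord of the grey short-tailed opossum, Monodelphis domestica, a marsupial whose pups are born with a very immature nervous system. Both were taken by identifier as genes tied to neuronal survival and apoptosis. They were picked from the difference between injured cords and controls at P28+24h in these same libraries, so that this difference is described below and not tested. Both genes also passed the filter on low counts, as 13534 genes did.

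The cord was cut completely at thoracic level 10 (T10) at postnatal day 7 (P7) or P28, and RNA of the segment rostral to the cut was sequenced 24 h later. The ages stand on either side of the loss of axon growth across such a lesion, and the study asked how the response of the cord differs between them. The 4 groups were the injured cords (P7+24h injured and P28+24h injured) and their age-matched controls (P8 control and P29 control), all from 1 colony and of both sexes, with no genetic change named in the labels. Injured pups were operated under isoflurane. P8 controls came from litters other than the injured ones, whereas P29 controls were mostly anaesthetised littermates of injured pups. There were 7 libraries: run 1 and run 2 in every group except P29 control, which had run 1 only. The study's methods state that libraries were made from pools of 2 individuals. They also list more animals per group than such pools would hold, so the number of animals behind each library is not settled here. The runs were sequenced from separately collected samples, so run and collection cannot be told apart.

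Faim2 encodes a membrane protein of the TMBIM family that is most abundant in neurons and blocks cell death signalled through the Fas receptor. Aatk, also called Lmtk1, encodes a membrane-anchored kinase of the lemur kinase family. It was named for its induction in dying blood cell precursors, and in neurons it acts on recycling endosomes and on neurite growth downstream of Cdk5. In the RefSeq annotation of a later opossum assembly (mMonDom1), Faim2 has 1 transcript and lies between Aqp2 and Bcdin3d, with its family relative Tmbim6 close by. Aatk has 13 transcripts there, lies between Pvalef and Baiap2 and shares its span with Mir338, Mir7275 and a protein-coding gene without a symbol. Whether reads were counted by strand was not stated, so the counts of Aatk are uncertain to the extent that these genes overlap it in the annotation that was counted.

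The libraries held between 3332232 and 6256074 counts, and 3 counts corresponded to between 0.448 and 1.06 CPM (counts scaled to library size, after TMM adjustment of the libraries to each other). The spread between libraries of a group was dominated by the run. Across all 13534 genes tested, the log2 difference between run 2 and run 1 in P8 control had a Pearson correlation of 0.80 with that in P7+24h injured and 0.70 with that in P28+24h injured, as a description over genes that share libraries and depth. Differences between groups are therefore given within runs beside the fitted values. The labels and the study's methods state different limits of RNA integrity for keeping a sample, so the RNA quality behind these levels is not known here.

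Faim2 was read at 102 counts in run 1 and 462 in run 2 of P8 control. In P7+24h injured it had 84 and 474 counts. The single P29 control library held 198 counts, and P28+24h injured had 61 and 501. On the CPM scale, with intervals that cover counting error only, the level in run 1 was 25.2 (95% Poisson interval 20.6 to 30.6) in P8 control, 22.0 (17.6 to 27.3) in P7+24h injured, 56.8 (49.2 to 65.3) in P29 control and 21.5 (16.5 to 27.6) in P28+24h injured. In run 2 it was 76.0 (69.2 to 83.3), 70.8 (64.5 to 77.4) and 81.1 (74.2 to 88.5) in the 3 groups sequenced. The 3 run 2 libraries were thus all above the 4 run 1 libraries, and within run 1 the P29 control stood above the other 3. The group means were 50.6 CPM ± 35.9 (SD, n = 2) in P8 control, 46.4 ± 34.5 (n = 2) in P7+24h injured and 51.3 ± 42.1 (n = 2) in P28+24h injured. In increasing order the groups ran P7+24h injured, P8 control, P28+24h injured and P29 control. No neighbours in that order differed by more than the spread between their libraries. That spread holds the run difference, and P29 control has run 1 only, so this order decides nothing between the groups. Within run 1, P29 control was at 56.8 CPM and P28+24h injured at 21.5.

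Aatk had 174 and 856 counts in P8 control and 138 and 943 in P7+24h injured, run 1 before run 2. It had 2100 counts in P29 control. P28+24h injured held 916 and 4041. The P8 control libraries were at 43.0 CPM (36.9 to 49.9) and 141 (132 to 151), and the P7+24h injured libraries at 36.2 (30.4 to 42.8) and 141 (132 to 150). The P29 control was at 603 (577 to 629), and P28+24h injured at 323 (302 to 345) and 654 (634 to 675). All 3 libraries of the older animals lay above all 4 of the younger, while control and injured libraries overlapped at each age. The means were 88.5 CPM ± 74.0 (SD, n = 2) in P7+24h injured, 91.9 ± 69.2 (n = 2) in P8 control and 489 ± 234 (n = 2) in P28+24h injured, with P29 control highest. The first 2 groups in this order did not differ beyond their spread, and neither did the last 2. As for Faim2, that spread holds the run difference and P29 control has run 1 only. Within run 1, P29 control was at 603 CPM and P28+24h injured at 323.

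**Figure D1:**
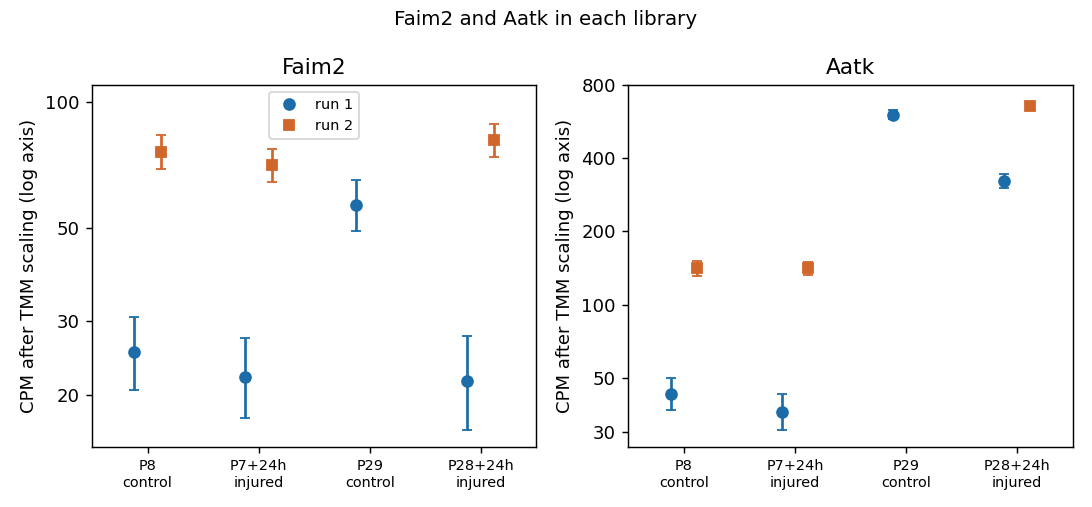
Level of Faim2 (left) and Aatk (right) in each of the 7 libraries, in CPM after TMM scaling on a log axis, with circles for run 1, squares for run 2 and bars for the 95% Poisson interval. The Faim2 run 2 squares (70.8 to 81.1 CPM) lie above every run 1 circle (21.5 to 56.8 CPM), and the Aatk points of the older animals (323 to 654 CPM) lie above those of the younger (36.2 to 141 CPM).

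The difference between runs was large for both genes and had the same direction in every group that had both. Run 2 over run 1, Faim2 differed by 1.58 on the log2 scale (3.01-fold) in P8 control, by 1.67 (3.21-fold) in P7+24h injured and by 1.89 (3.77-fold) in P28+24h injured. Aatk differed by 1.70 (3.27-fold), 1.95 (3.89-fold) and 1.02 (2.03-fold). Both genes were thus at least 2-fold higher in run 2 in all 3 groups, as did 6.24% of the genes tested. The run difference of Aatk was smaller in P28+24h injured than in the younger groups, whereas that of Faim2 was not.

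The first question was whether transection at P7 altered the RNA level of these genes, and this is the comparison that played no part in choosing them. Faim2 in the injured library was 0.874 times that of P8 control in run 1 (95% counting interval 0.647 to 1.18) and 0.931 times in run 2 (0.817 to 1.06). Aatk was 0.841 times control in run 1 (0.668 to 1.06) and 1.00 times in run 2 (0.910 to 1.10). All 4 within-run intervals held a ratio of 1. In whole cord RNA, fewer cells of a type and less RNA per cell cannot be told apart.

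In the fit over all 7 libraries, without the run, the P7+24h difference of Faim2 was −0.12 on the log2 scale (SE 0.87, 95% interval −2.25 to 2.01) and that of Aatk −0.05 (SE 0.81, −2.05 to 1.94). Neither passed edgeR's quasi-likelihood test, with Benjamini-Hochberg adjusted p = 1 for each. A gene was called when its adjusted p was under 0.05 and it differed at least 2-fold. By this rule 0% of the genes tested were called, and 69 genes (0.51%) had an unadjusted p under 0.05. With the run as a replicate block, the differences were −0.14 (SE 0.17, −0.53 to 0.24) for Faim2 and −0.10 (SE 0.22, −0.59 to 0.39) for Aatk, again with edgeR's adjusted p = 1 for each. The block called 2 genes (0.0148%), and 0 of the 2 members were among them. Its intervals bound a fall at P7+24h to 0.53 on the log2 scale for Faim2 and to 0.59 for Aatk under that model, so a fall to 50% of control or less lay outside both.

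**Figure D2:**
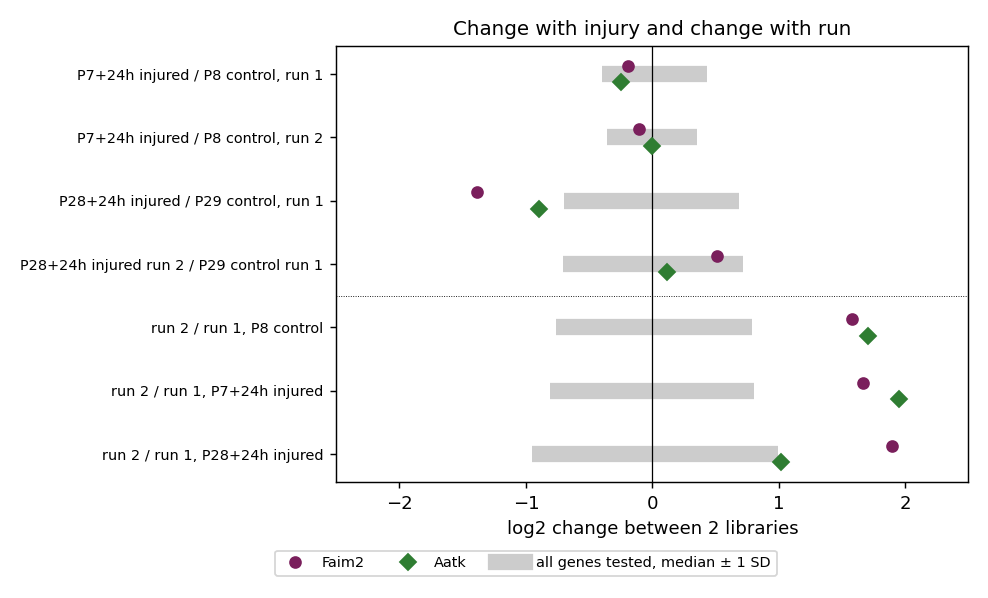
Log2 change of Faim2 (circles) and Aatk (diamonds) between pairs of libraries: injured over control in the upper 4 lines, run 2 over run 1 in the lower 3, with grey bars for the median ± 1 SD of all genes tested. Both genes sit inside the bar at P7+24h, below it at P28+24h within run 1, inside it when the run 2 injured library is set against the run 1 control, and at or above its upper end between runs.

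At P28+24h the values on which the choice rests were as follows. Within run 1, Faim2 was at 61 counts against 198, 2.64-fold lower in the injured library (ratio 0.379, counting interval 0.279 to 0.507; −1.38 on the log2 scale). Aatk was at 916 counts against 2100, 1.87-fold lower (0.536, 0.495 to 0.580; −0.90). Counting error was small beside both differences, but each rests on 1 library a side. In run 1, 729 of the genes tested (5.39%) were at least 2-fold lower, Faim2 among them and Aatk just short of it. The run 2 injured library could be set only against the run 1 control. Faim2 was then 1.43 times control (1.21 to 1.69) and Aatk 1.09 times (1.03 to 1.15), or 0.51 and 0.12 on the log2 scale. This pair also differs in run, so these ratios do not measure injury alone. Run 2 over run 1, Faim2 differed by 1.58 in P8 control and 1.67 in P7+24h injured. For Aatk the same differences were 1.70 and 1.95.

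The fits gave these values in 2 forms. Without the run, the difference between P28+24h injured and P29 control was −0.14 ± 1.06 (SE) on the log2 scale for Faim2 and −0.30 ± 0.98 for Aatk. With the run as a replicate block it was −1.28 ± 0.23 for Faim2 and −1.14 ± 0.26 for Aatk. The block estimates 1 run difference from the 3 groups that have both runs and applies it to every group, so it takes the effect of the run to be equal in all of them. It called 0.754% of the genes tested and the likelihood ratio test with the block 3.64%, from which nothing is read for genes chosen in this contrast. For Aatk the run difference at P28+24h (1.02) was below those of the younger groups, and the blocked value (−1.14) lay further from 0 than the value within run 1 (−0.90). For Faim2 the corresponding values were −1.28 and −1.38.

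**Figure D3:**
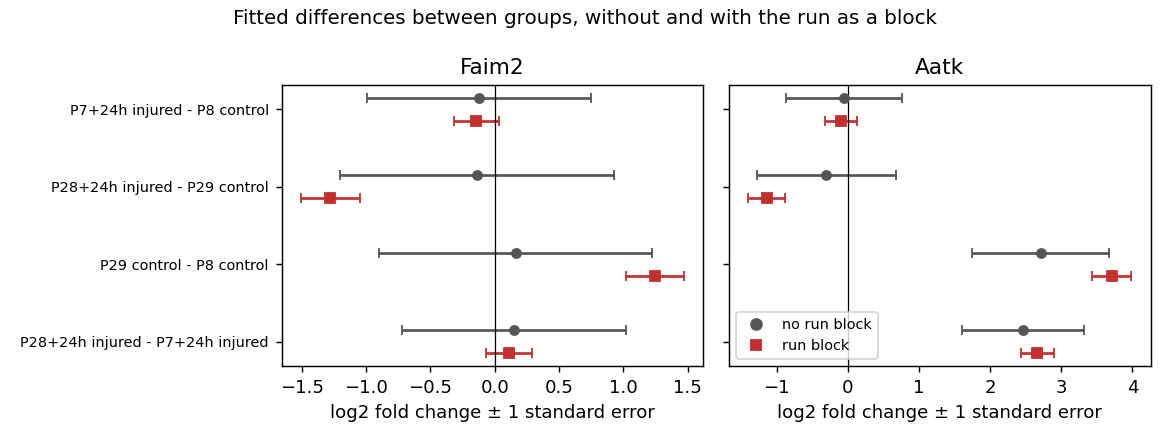
Fitted log2 differences between groups for Faim2 (left) and Aatk (right), circles without and squares with the run as a replicate block, bars ± 1 SE. The block moved the P28+24h difference from −0.14 to −1.28 for Faim2 and from −0.30 to −1.14 for Aatk, and left both P7+24h differences between −0.14 and −0.05.

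Age separated the genes. Between the run 1 controls, Aatk was 14.01-fold higher at P29 than at P8 (counting interval 11.998 to 16.448; 3.80 on the log2 scale) and Faim2 2.25-fold higher (1.77 to 2.89; 1.16). Both were among the 15.3% of genes at least 2-fold higher in this pair. Against the run 2 control of P8, Aatk at P29 was still 4.28-fold higher, while Faim2 differed by −0.42 on the log2 scale. Among injured cords, P28+24h over P7+24h was 8.93-fold (7.46 to 10.8) in run 1 and 4.65-fold (4.33 to 4.99) in run 2 for Aatk. For Faim2 it was 0.977-fold in run 1 and 1.15-fold (1.01 to 1.30) in run 2. Aatk was thus at least 2-fold higher in the older animals in all 3 pairs within a run, as were 8.06% of the genes, and Faim2 was not. In 19.9% of the genes, Aatk included, all 3 older libraries lay above all 4 younger.

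The fitted difference of P29 control over P8 control was 2.71 ± 0.96 (SE) for Aatk without the block and 3.71 ± 0.28 with it. For Faim2 it was 0.16 ± 1.06 and 1.25 ± 0.22. These comparisons share the P28+24h and P29 libraries with the one that chose the genes and are given without a test. The same holds for the difference between the responses at the 2 ages. It was −0.01 ± 1.38 for Faim2 and −0.25 ± 1.28 for Aatk without the block, and −1.13 ± 0.29 and −1.05 ± 0.34 with it. Within run 1 alone it was −1.19 for Faim2 and −0.65 for Aatk, from 1 library a group.

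A ratio taken within a library does not depend on its depth or scaling. Aatk counts per Faim2 count were 1.71 (95% exact interval 1.33 to 2.20) and 1.85 (1.65 to 2.08) in P8 control and 1.64 (1.24 to 2.18) and 1.99 (1.78 to 2.23) in P7+24h injured, run 1 before run 2. The 4 younger libraries thus held nearly the same ratio in spite of the run. The ratio was 10.6 (9.16 to 12.3) in P29 control. It was 15.02 (11.6 to 19.8) in run 1 and 8.07 (7.35 to 8.87) in run 2 of P28+24h injured, on either side of the control. All 3 older libraries exceeded all 4 younger ones, and the 2 injured libraries at P28 differed beyond counting error. Because the genes differ in length, the ratio compares libraries and not the levels of the genes.

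**Figure D4:**
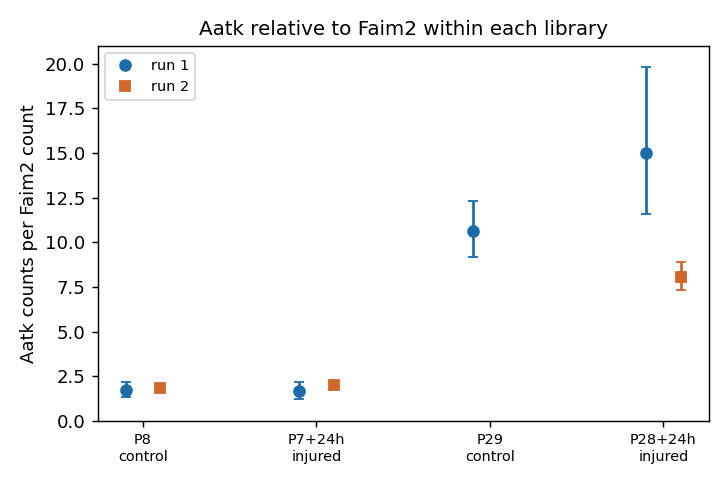
Aatk counts per Faim2 count in each library (linear axis from 0), circles for run 1, squares for run 2, bars for the 95% interval from counting. The 4 younger libraries lie between 1.64 and 1.99, and the 3 older ones between 8.07 and 15.02 with the P29 control in the middle.

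The other genes of the pathways could be followed only in part. The counts carry Ensembl identifiers, and symbols were matched through the study's lists of genes called in these libraries, mostly at P28+24h, so the matched genes are not independent evidence of any difference below. In the TMBIM family 1 of 6 genes was matched, Faim2 itself, and among the lemur kinases and partners of Aatk 2 of 8, Aatk and Slc12a2. In the Fas pathway 1 of 16 was matched, among the genes of the mitochondrial (Bcl2) pathway 0 of 14, and among neurotrophic factors and receptors 2 of 14. With so few members, a count over these lists says nothing about the pathways.

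Slc12a2, a sodium, potassium and chloride cotransporter listed among the partners of Aatk, was at 61.8 and 90.8 CPM in P8 control, 53.8 and 115 in P7+24h injured, 369 in P29 control, and 138 and 471 in P28+24h injured. Like Aatk it lay higher in all older libraries than in the younger. At P28+24h its run 1 library was below the run 1 control. Its run 2 library, which had no control of its own run, was above that control. Sort1, which encodes sortilin, a partner of neurotrophin receptors, was at 9.64 and 39.2, 7.87 and 33.6, 22.1, and 9.52 and 41.3 CPM in the same order. Ret, the signalling receptor for glial cell line-derived neurotrophic factor, was at 54.6 and 129.5, 53.5 and 114.5, 60.3, and 24.3 and 90.4 CPM. In both, as in Faim2, the run 2 libraries were the highest and the run 1 injured library of P28 was below its control. At P7+24h none of Slc12a2, Sort1 and Ret passed edgeR's quasi-likelihood test, with or without the block (adjusted p = 1 for each).

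Tnfrsf1a, the death receptor for tumour necrosis factor, differed in its pattern. It had 2 and 13 counts in P8 control, 17 and 35 in P7+24h injured, 29 in P29 control and 30 and 109 in P28+24h injured. Within each run the P7+24h injured library was above its control. Its P7+24h difference was 1.79 ± 0.67 (SE) on the log2 scale, at edgeR's adjusted p = 1 in the quasi-likelihood fit and adjusted p = 0.884 once the replicate block was added. Of the 3 fits, only edgeR's likelihood ratio test with the block gave an adjusted p under the threshold (adjusted p = 0.0339), and that test called 0.266% of genes. Across all lists fixed for this work, 0 matched members passed edgeR's quasi-likelihood test at P7+24h, with or without the block. The likelihood ratio test with the block called 5 of the 7 matched microglia and macrophage markers, all higher, and none of the neuronal, oligodendrocyte or neurotrophic genes. Tnfrsf1a and most of these microglia markers were matched through the study's list for P7+24h, chosen on these same samples, so their direction at P7+24h is not independent evidence.

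The study placed both genes in a group for apoptosis, whose 6 other members it chose from the same P28+24h comparison. It also listed 1 of these, Camkk1, among genes of synapses, neural receptors and channels. At P28+24h within run 1 all 6 were higher in the injured library: Dnajb13 by 2.11 on the log2 scale, a gene like caspases 4, 5 and 12 by 2.13, a Pycard-like gene by 1.79, a Ccnl2-like gene by 1.61, Plac8 by 1.53 and Camkk1 by 1.03. Faim2 and Aatk were the 2 lower members. The run 2 injured library could be set only against the run 1 control, a pair that also differs in run. In that pair 7 of the 8 were higher, Faim2 (0.51) and Aatk (0.12) included, and Camkk1 differed by −0.01. The median was 0.50 where it had been 1.57 within run 1. Between runs, the 6 other members were lower in run 2 than in run 1 in P8 control and in P28+24h injured. In P7+24h injured 4 of them were lower and 2 higher, the caspase-like and the Pycard-like gene, which had 10 counts or fewer in each of the younger libraries. The caspase-like gene had 1 count in each P8 control library, so its sign there rests on library size alone. Faim2 and Aatk were higher in run 2 in all 3 groups. At P7+24h, 0 of the 8 passed edgeR's quasi-likelihood test at an adjusted p under 0.05, with or without the replicate block.

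Genes that differed between the runs of the younger groups as Faim2 and Aatk did are given here as a description only. The P28+24h difference within run 1 rests on 1 library a side. Of the 1054 genes at least 2-fold higher in run 2 in both P8 control and P7+24h injured, to which both members belong, 227 (21.5%) were at least 2-fold lower in P28+24h injured than in P29 control within run 1 and 28 (2.66%) at least 2-fold higher. Their median difference was −0.48 on the log2 scale, beside −0.01 over all genes tested. Of all genes tested, 5.39% were at least 2-fold lower in this pair and 6.41% at least 2-fold higher. Of the 406 genes at least 2-fold lower in run 2, 6 (1.48%) were at least 2-fold lower in the injured library and 194 (47.8%) higher, with a median of 0.96. Across the 13534 genes the run difference in P8 control and the P28+24h difference in run 1 had a Pearson correlation of −0.46 and a Spearman correlation of −0.51, given as a description because genes of 1 library are not independent. The part of the run in the P28+24h difference of Faim2 and Aatk was not tested.

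**Figure D5:**
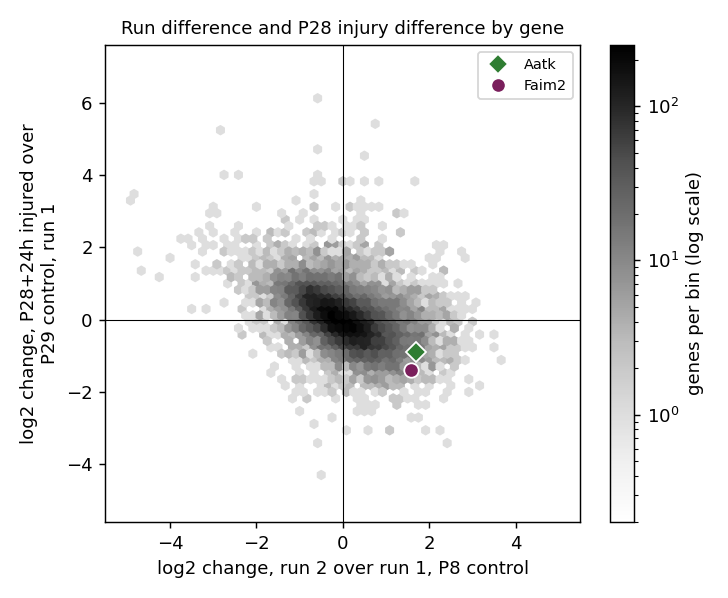
Each gene tested by its log2 run difference in P8 control (x axis) and its log2 difference between P28+24h injured and P29 control in run 1 (y axis), as bins shaded by the number of genes on a log scale. The cloud slopes downward (Pearson −0.46), and Faim2 (1.58, −1.38) and Aatk (1.70, −0.90) lie at its lower right.

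Cell type markers were read beside the P28+24h values, for the members that could be matched. The neuronal and oligodendrocyte markers were all matched through the study's list for P28+24h, so their direction there is not independent evidence. Slc18a3, the vesicular acetylcholine transporter of motor neurons and the 1 neuronal marker of 20 that was matched, was at 76.9 and 116 CPM in P8 control, 74.5 and 153 in P7+24h injured, 102 in P29 control, and 40.2 and 127 in P28+24h injured. It differed by −1.34 on the log2 scale at P28+24h within run 1, close to Faim2. The 6 matched oligodendrocyte markers of 12 were all lower in the injured library of run 1, with a median of −0.90 beside −0.01 over all genes. Their summed level was 148 and 372 CPM in P8 control, 126 and 365 in P7+24h injured, 94262 in P29 control, and 51157 and 65209 in P28+24h injured. All 6 were at least 2-fold higher at P29 than at P8 in run 1, with a median of 8.02 on the log2 scale.

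The summed markers of microglia and of muscle were higher in both injured libraries of P28 than in the control, and those of erythroid cells in run 1 only. The muscle and erythroid markers were all matched through the study's list for P28+24h, and most microglia markers through that for P7+24h. Both lists were chosen on these same libraries, so the direction of these sums is not independent evidence. The 7 matched microglia and macrophage markers of 12 summed to 27.4 and 29.8 CPM in P8 control, 95.2 and 116 in P7+24h injured, 133 in P29 control, and 443 and 274 in P28+24h injured. The 6 matched skeletal muscle markers of 10 summed to between 7.73 and 16.3 CPM in the younger libraries, 10.6 in P29 control, and 148 and 47.3 in P28+24h injured. The 3 matched erythroid markers of 8 summed to 283 and 55.3 CPM in P8 control and to 190 and 51.2 in P7+24h injured, run 1 before run 2. They summed to 216 CPM in P29 control, and to 456 and 134 in P28+24h injured. Their run 1 sum was thus the higher in every group that had both runs. In all 3 lists the run 1 injured library of P28, the one in which Faim2 and Aatk were low, held the higher sum of that pair. By gene, 2 of the 7 microglia and macrophage markers and 1 of the 6 muscle markers were higher in the run 2 library of that group. Myl1 (50.4 CPM) and Mylpf (58.5 CPM) made up most of the muscle sum in the run 1 library. The astrocyte marker Gfap, the 1 of 8 matched, was at 1550 CPM in P29 control and 1453 and 2382 in P28+24h injured. The part of these cells in the values of Faim2 and Aatk was not tested.

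The genes whose log2 CPM followed each member most closely over the 7 libraries were sought among 588 genes with a symbol, itself a set drawn mostly from the genes called at P28+24h. For Faim2 these were Sema7a (Pearson 0.996), Slc22a23 (0.991), Sort1 (0.991), Kiaa1737 (0.988) and Scrn1 (0.985). Sema7a, a membrane-anchored semaphorin, was at 36.3 and 81.6 CPM in P8 control, 34.4 and 79.1 in P7+24h injured, 67.4 in P29 control, and 30.7 and 96.0 in P28+24h injured. It was thus high in run 2 and, within run 1, highest in the P29 control, as was Faim2.

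For Aatk the closest were Padi2 (0.996), Gpr17 (0.991), Zeb2 (0.989), Tns3 (0.986) and Olig2 (0.986). Gpr17, a receptor of maturing oligodendrocyte precursors, was at 10.9 and 34.7 CPM in P8 control, 5.77 and 38.1 in P7+24h injured, 236 in P29 control, and 93.1 and 388 in P28+24h injured. Olig2, a transcription factor of the oligodendrocyte lineage, was at 14.6 and 38.3, 18.4 and 43.6, 176, and 84.3 and 218 CPM. Both were higher in the older libraries. At P28+24h their run 1 level was below the run 1 control. Their run 2 level, which had no control of its own run, was above that control. The 7 libraries fall by run and by age, and close likeness was common: 375 of 11295 genes (3.32%) had a Pearson correlation above 0.9 with Faim2, and 626 (5.54%) with Aatk.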

How the data were processed

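The authors sequenced 7 rostral spinal cord libraries as single-end reads of 100 bp, used Bowtie2 for mapping against Ensembl release 69 and counted reads per nuclear gene with HTSeq in union mode. The deposited values are these raw counts, not normalized. The submitters' processing notes also name edgeR 2.6.12.

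Here the counts were fitted over 4 groups with edgeR 4.0.16 in R 4.3.3 (quasi-likelihood test, TMM factors, filterByExpr with a minimum count of 10), adjusted by Benjamini-Hochberg over 13534 genes. The main fit had no block. A second fit took the run, which the labels number, as a replicate block. Run differences of the 3 groups with both runs correlated at 0.70 to 0.80, so the numbers pair the libraries. The common dispersion was 0.141 without the block (3 residual degrees of freedom) and 0.0181 with it (2). Levels are CPM after TMM scaling, and log2 changes between libraries used a prior count of 2. Intervals and floors cover counting error only, and reads without molecular identifiers are not independent molecules. Scripts were tested on simulated data. Alternatives were other tests, DESeq2 1.42.0, other scalings and filters, thinning and leaving out each library.

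The members and the 11 gene lists were chosen with earlier results of these data known. Named genes were both members, matched list members, the study's apoptosis group and, for each member, the 5 most alike genes with a symbol at a mean of at least 5 CPM.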

Additional observations from a re-analysis of the deposited data

How the results depend on the processing

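The P7+24h difference of Faim2 was negative under 17 of 19 alternatives (−1.20 to 0.89 on the log2 scale) and that of Aatk under 17 of 19 (−1.35 to 1.05), with a smallest adjusted p of 0.999941 among the 17 edgeR and DESeq2 fits that gave one; the exceptions were libraries left out. With the replicate block the Aatk difference at P28+24h was −1.14, in the quasi-likelihood and in the likelihood ratio fit. The fits with a library left out had no run block, so dropping a library of a compared group also changed its balance of runs. Their ranges therefore hold the run difference. Leaving out single libraries moved the P28+24h differences between −1.46 and 0.50 for Faim2 and between −0.96 and 0.11 for Aatk. It moved P28+24h injured over P7+24h injured between −1.17 (without P28+24h injured replicate 2) and 1.23 for Faim2, and between 1.79 and 3.76 (without P7+24h injured replicate 2) for Aatk. It moved the difference between the responses between −1.33 (without P28+24h injured replicate 2) and 1.07 for Faim2, and between −1.35 and 1.05 (without P7+24h injured replicate 2) for Aatk. P29 control over P8 control stayed positive in all 18 alternatives for Aatk (2.10 to 3.81) and in 16 of 18 for Faim2 (−0.42 to 1.25). Aatk at P28+24h injured over P7+24h injured was positive in all 19.

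Genes called at P7+24h numbered 0 without a block, 2 with the replicate block, 36 with the likelihood ratio test and block, 4 with edgeR's exact test on all 7 libraries, 6 with that test on the 4 younger ones, and 2 with DESeq2, and 0 (0 to 0) on leaving out single libraries. At P28+24h they numbered 0, 102 with the replicate block, 493 with the likelihood ratio test and block, 3 and 1 with the exact test on all 7 and on the 3 older libraries, and 2 with the quasi-likelihood test on those 3. At an unadjusted p under 0.05 edgeR's quasi-likelihood test gave 69 genes for the P7+24h difference and 157 for the later one.

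The P29 control has 1 library and could not be left out, the difference between responses could not be fitted by tests on 2 groups, and list checks are void because too few members of each list were matched. Where leaving out a library left 1 in a group, it was assumed to vary like the other groups. Nothing in the labels says that the 2 runs repeat the same animals. The p-values measure the spread between libraries of a group, to which P29 control, with 1 library, adds nothing. Without the block that spread includes the run difference.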
